A study of Mus musculus with 18 samples.

Results

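Expression of 10 interferon pathway genes was followed in cultured mouse motoneurons: Stat2, Irf1, Irf7 and Irf9 (signalling), Ifih1 and Dhx58 (sensors), and Usp18, Ifi35, Rtp4 and Ifi202b (feedback and other induced proteins). They are 10 of 18191 genes measured and are read by 16 probe sets that name a single gene. The genes were listed with the somatodendritic differences of these arrays already known. Their somatodendritic values are therefore given as a description, without a test, and the listing used no threshold.

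The arrays came from spinal motoneurons of mouse embryos at stage E12.5 (days of embryonic development), enriched with an antibody to the p75 receptor (panning). The groups were cultures given a lentivirus with a short hairpin RNA against Smn (Smn knockdown), cultures given the empty lentiviral vector, and wild-type cultures left untreated, with 3 arrays for each group and compartment, 18 in all. All cultures grew for 7 days in microfluidic chambers, in which cells are plated on one side and axons extend through narrow channels to the other. Every group received CNTF at 5 ng/ml on both sides and BDNF at 20 ng/ml on the axonal side. RNA of the somatodendritic and of the axonal compartment was amplified linearly in 2 rounds and hybridised to Affymetrix Mouse430_2 arrays, whose deposited values are log2 expression values. The empty vector cultures received virus and the wild-type cultures did not, so the empty vector is the control that shares viral exposure with the knockdown. No group received a hairpin against another target, so effects of a hairpin and of lower Smn cannot be told apart. The labels do not state whether replicate arrays represent separate cultures, so the p-values measure only the spread between arrays, which may be technical.

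Type I interferons bind a receptor that activates JAK kinases, which phosphorylate STAT proteins. STAT2 joins with IRF9 and a partner STAT to form a complex that enters the nucleus and binds interferon-stimulated response elements. Cytosolic RNA sensors such as MDA5, the product of Ifih1, start interferon production through adaptors and IRF transcription factors. USP18, itself induced by interferon, removes the ubiquitin-like ISG15 from proteins and dampens signalling at the receptor. Microglia, the resident immune cells of the nervous system, and neurons can both respond to type I interferon.

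Promoter windows were searched for the DNA letters through which this pathway is known to act. RefSeq windows of 300 bases (build GRCm38.p6, from 250 bases before to 50 after the start) matched 7 of the 10 genes, as 9 windows. No window was matched for Usp18, Dhx58 and Rtp4. Both strands were searched for the response element letters GAAANNGAAA and for the gamma-activated site letters TTCNNNGAA, and the match is in capitals. The first pattern was in the windows of Ifih1 and Stat2, for Stat2 on the opposite strand, and in 3.44% of 32851 mouse windows. The second was in those of Irf1, Ifi35 and Ifi202b, and in 8.30% of mouse windows. A match of letters is no evidence of binding, and the Irf7 and Irf9 windows held neither pattern.
Ifih1 (chr2:62646206-62646505, minus strand): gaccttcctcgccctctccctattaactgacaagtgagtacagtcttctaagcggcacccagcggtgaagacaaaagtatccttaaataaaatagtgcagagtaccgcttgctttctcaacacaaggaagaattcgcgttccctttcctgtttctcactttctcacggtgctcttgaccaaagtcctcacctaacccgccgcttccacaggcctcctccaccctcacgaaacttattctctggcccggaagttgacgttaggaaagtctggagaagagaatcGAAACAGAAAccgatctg
Stat2 (chr10:128270248-128270547, plus strand): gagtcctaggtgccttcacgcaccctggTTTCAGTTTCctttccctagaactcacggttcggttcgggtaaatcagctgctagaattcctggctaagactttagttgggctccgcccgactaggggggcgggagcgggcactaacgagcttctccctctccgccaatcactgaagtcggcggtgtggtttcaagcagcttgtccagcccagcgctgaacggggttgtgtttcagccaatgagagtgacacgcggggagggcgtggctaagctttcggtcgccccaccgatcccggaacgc
Irf1 (chr11:53769764-53770063, plus strand): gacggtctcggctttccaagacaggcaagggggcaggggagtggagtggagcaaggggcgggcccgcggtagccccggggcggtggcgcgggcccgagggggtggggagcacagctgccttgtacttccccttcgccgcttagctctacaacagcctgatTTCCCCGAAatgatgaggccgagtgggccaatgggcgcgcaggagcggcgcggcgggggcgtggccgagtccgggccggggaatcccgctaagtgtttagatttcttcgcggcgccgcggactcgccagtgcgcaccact
Ifi35 (chr11:101448162-101448461, plus strand): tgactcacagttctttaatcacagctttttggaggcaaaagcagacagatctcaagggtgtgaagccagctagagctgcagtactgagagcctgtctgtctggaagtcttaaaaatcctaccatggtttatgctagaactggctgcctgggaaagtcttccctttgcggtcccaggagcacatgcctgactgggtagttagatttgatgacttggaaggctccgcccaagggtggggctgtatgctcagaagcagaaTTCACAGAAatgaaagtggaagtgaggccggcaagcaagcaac
Ifi202b (chr1:173982795-173983094, minus strand): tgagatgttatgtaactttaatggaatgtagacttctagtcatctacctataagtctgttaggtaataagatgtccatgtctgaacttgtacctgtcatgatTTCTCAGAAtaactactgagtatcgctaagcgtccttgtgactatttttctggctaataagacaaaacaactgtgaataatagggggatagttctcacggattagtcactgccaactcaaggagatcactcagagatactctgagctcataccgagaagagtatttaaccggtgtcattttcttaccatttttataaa

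Signal was judged against 151 probe sets for genes not expected in spinal cord, such as olfactory receptors, and their 95th percentile on an array served as its background level. It lay at 6.17 to 6.52 on somatodendritic and 6.55 to 7.64 on axonal arrays. Between 10029 and 10871 genes exceeded it on somatodendritic arrays, against 4979 to 6747 on axonal Smn knockdown, 6775 to 8654 on axonal empty vector and 8929 to 9563 on axonal wild-type arrays. Arrays within a somatodendritic group correlated across genes at 0.994 or more, while within axonal groups the correlation was 0.744 to 0.795 for Smn knockdown, 0.782 to 0.882 for empty vector and 0.840 to 0.902 for wild-type arrays. Smn1, the knockdown target, averaged 5.06 ± 0.12 on Smn knockdown, 5.20 ± 0.18 on empty vector and 4.97 ± 0.13 on wild-type somatodendritic arrays, and 5.32 ± 0.40 on Smn knockdown, 5.98 ± 0.92 on empty vector and 5.65 ± 0.10 on wild-type axonal arrays (SD, n = 3 each). It exceeded background on 1 of 18 arrays, so the knockdown itself was not detectable with this probe set. Of 11 motoneuron markers, Prph, Nefl and Tubb3 were above background on all 18 arrays, and Chat, Slc18a3, Slc5a7 and Mnx1 on none.

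Markers of microglia and macrophages were also present and stood at different levels in the groups. Over 16 such genes the mean log2 value was 8.25, 8.07 and 8.43 on Smn knockdown, 6.26, 6.12 and 5.92 on empty vector and 7.84, 7.82 and 7.74 on wild-type somatodendritic arrays. On axonal arrays it was 9.05, 6.91 and 6.64 with Smn knockdown, 5.78, 6.11 and 5.86 with empty vector and 9.92, 7.39 and 6.78 in wild-type cultures. Axonal Smn knockdown replicate 1 and axonal wild-type replicate 1 thus stood apart from the other arrays of their groups. In the somatodendritic arrays 12 of the 16 markers exceeded background on all Smn knockdown arrays, 6 on all empty vector arrays and 12 on all wild-type arrays. In axons 5 exceeded it on all Smn knockdown arrays, 1 on all empty vector arrays and 9 on all wild-type arrays. Itgam and P2ry12 did not exceed it on any array. Markers of the oligodendrocyte lineage (6 measured) averaged 8.03 ± 0.40 on Smn knockdown, 9.24 ± 0.30 on empty vector and 9.41 ± 0.12 on wild-type somatodendritic arrays, and 8 astrocyte markers averaged 8.07 ± 0.25 on Smn knockdown, 8.72 ± 0.12 on empty vector and 8.67 ± 0.03 on wild-type arrays (SD, n = 3 each). On both means the Smn knockdown arrays lay below all control arrays. The part of these markers in the results was not tested. In such bulk samples, fewer cells of a type and less RNA per cell cannot be told apart.

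In the somatodendritic compartment, Usp18, Ifi35, Rtp4, Ifi202b and Ifih1 stood at log2 levels of 9.68 to 11.46 with Smn knockdown, while most of them were near or below background in both control groups. Irf9 and Stat2 were also above all control arrays, at lower levels. Irf1 was well expressed everywhere and differed little, and Irf7 and Dhx58 did not reach background on any somatodendritic array. On all 10 genes every Smn knockdown array was higher than every empty vector array, and on 9 of 10, all but Irf1, higher than all 6 control arrays. These patterns held for 19.6% and 14.4% of all genes. The members were chosen with this contrast in view, so the counts are a description. The median log2 difference of the 10 genes was 3.32 for Smn knockdown minus empty vector, against -0.02 over all genes, and 2.34 for Smn knockdown minus wild-type, against -0.03 over all genes. Both comparisons use the same Smn knockdown arrays.

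**Figure D1:**
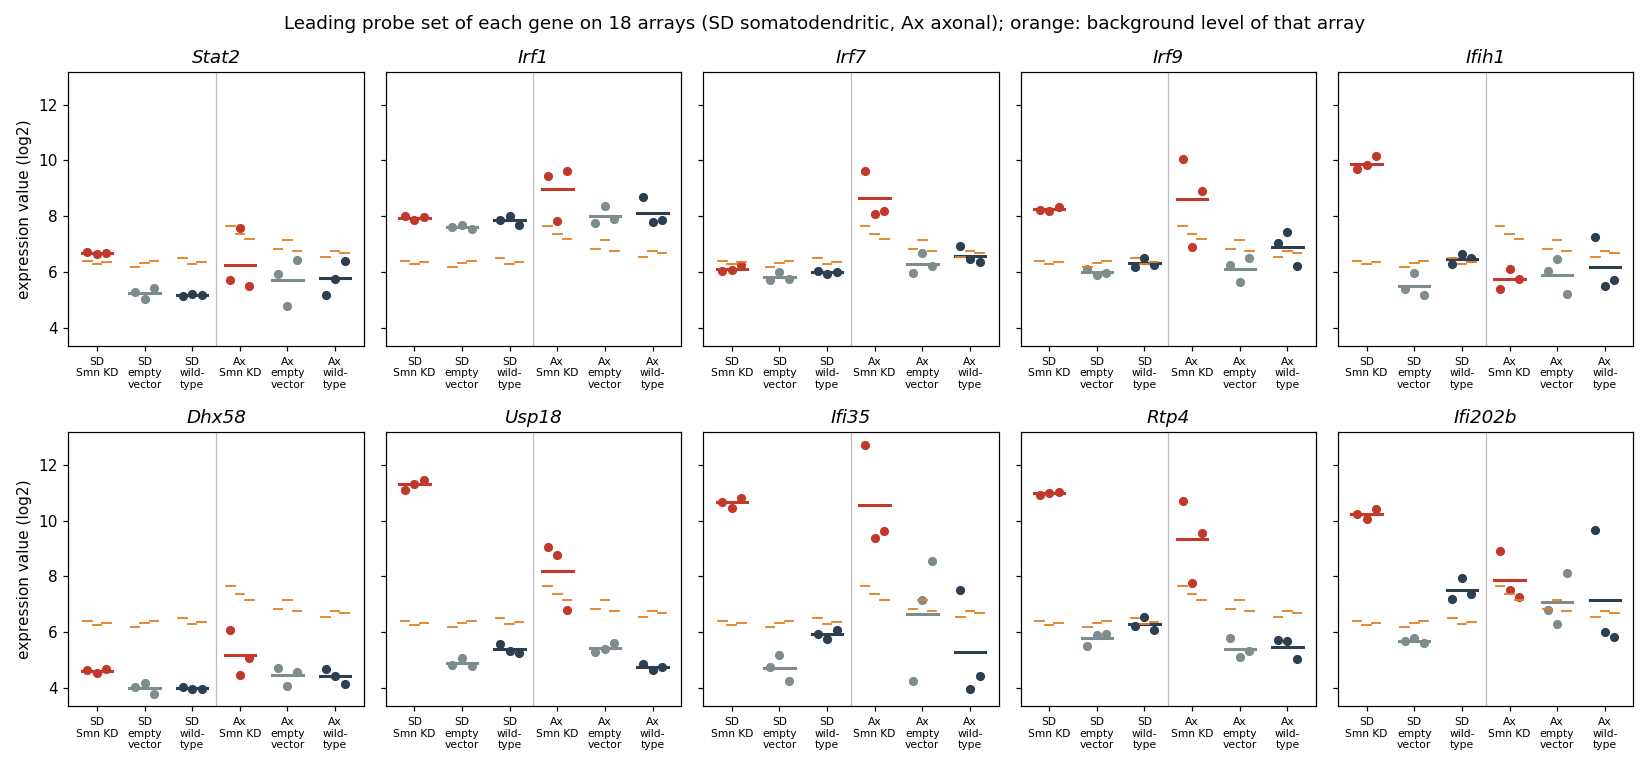
Log2 expression value (vertical axis) of the leading probe set of each of the 10 genes on all 18 arrays; each point is 1 array, coloured bars are group means, and short orange marks give the background level of that array. Groups run from left to right as Smn knockdown, empty vector and wild-type, first somatodendritic, then axonal. Usp18 stood at 11.11 to 11.46 on the somatodendritic Smn knockdown arrays, whereas Irf1 was above background on all 18 arrays.

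Among the signal transducers, Stat2 (STAT2, the subunit that carries the transactivation domain of the complex) had 6.70, 6.65 and 6.68 on Smn knockdown, 5.29, 5.04 and 5.42 on empty vector and 5.13, 5.22 and 5.17 on wild-type somatodendritic arrays with its leading probe set 1421911_at. The Smn knockdown arrays were just above their background and the control arrays below theirs. The log2 difference from empty vector was 1.43, or at least 1.29-fold when the controls are set at background. The bound, here and below, takes the background level of each control array in place of a value that does not exceed it. A further probe set, 1450403_at, was below background on every array and had a somatodendritic difference of 0.10, with overlapping groups. The rise of Stat2 therefore rests on 1 of its 2 probe sets.

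Irf9, the DNA-binding subunit of the same complex, had 8.21, 8.19 and 8.35 on Smn knockdown, 6.09, 5.91 and 5.95 on empty vector and 6.17, 6.52 and 6.24 on wild-type somatodendritic arrays. All knockdown arrays were clear of background and of every control array, 2.27 above empty vector on the log2 scale and at least 3.85-fold. Irf1, a transcription factor induced by interferon gamma and by inflammatory signals, had 7.99, 7.86 and 7.97 on Smn knockdown, 7.60, 7.67 and 7.54 on empty vector and 7.87, 8.01 and 7.70 on wild-type arrays. Its knockdown arrays overlapped the wild-type arrays and exceeded the empty vector arrays by 0.34, or 1.26-fold. Irf7, the factor that amplifies type I interferon production, had 6.03, 6.07 and 6.27 on Smn knockdown, 5.71, 5.98 and 5.74 on empty vector and 6.03, 5.93 and 5.99 on wild-type arrays. All of these lie below background, so the difference of 0.31 from empty vector carries no fold.

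Both sensors belong to the RIG-I-like RNA helicases. Ifih1, whose product MDA5 recognises long double-stranded RNA, had 9.68, 9.83 and 10.15 on Smn knockdown, 5.38, 5.95 and 5.19 on empty vector and 6.29, 6.66 and 6.50 on wild-type somatodendritic arrays. The log2 difference from empty vector was 4.38, at least 11.95-fold, and there was no overlap with either control. Dhx58 encodes LGP2, a relative that lacks the signalling domain of the other helicases. Its leading probe set 1451426_at had 4.63, 4.53 and 4.70 on Smn knockdown, 4.05, 4.18 and 3.79 on empty vector and 4.04, 3.95 and 3.97 on wild-type arrays. All of its 3 probe sets lay below background on every array, and their differences from empty vector were 0.61, -0.24 and 0.39, which do not share a direction. Dhx58 thus has no measurable level in these cultures.

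Usp18, the ISG15 protease and receptor-level inhibitor, had 11.11, 11.33 and 11.46 on Smn knockdown, 4.82, 5.08 and 4.79 on empty vector and 5.57, 5.33 and 5.27 on wild-type somatodendritic arrays. No control array reached background. The log2 difference from empty vector was 6.41, at least 31.9-fold, and from wild-type 5.91, at least 30.0-fold, which are the largest differences of the 10 genes in both comparisons. Rtp4, which encodes an interferon-induced chaperone of G protein-coupled receptors, had 10.93, 10.99 and 11.04 on Smn knockdown, 5.51, 5.90 and 5.93 on empty vector and 6.23, 6.53 and 6.09 on wild-type arrays. Its log2 difference from empty vector was 5.21, at least 25.6-fold. The second probe set of Rtp4, 1449143_at, was below background on every array and differed by 0.20.

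Ifi35 encodes an interferon-induced leucine zipper protein. Its leading probe set 1445897_s_at had 10.68, 10.47 and 10.81 on Smn knockdown, 4.75, 5.17 and 4.26 on empty vector and 5.95, 5.75 and 6.10 on wild-type somatodendritic arrays, a log2 difference from empty vector of 5.93, at least 20.3-fold. The mark _s_ in its name, like _x_, says that it may also bind other transcripts. The other probe sets gave smaller differences in the same direction. 1459151_x_at had 8.52, 8.34 and 8.63 on Smn knockdown, 5.72, 5.56 and 5.66 on empty vector and 6.08, 5.82 and 5.75 on wild-type arrays, a difference of 2.85, at least 4.56-fold. 1424617_at, the only one of the 3 without such a mark, had 6.25, 6.72 and 6.95 on Smn knockdown, 5.70, 5.49 and 5.45 on empty vector and 5.50, 5.53 and 5.53 on wild-type arrays, a difference of 1.10. On all 3 probe sets the Smn knockdown arrays lay above all 6 control arrays.

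Ifi202b belongs to the mouse HIN-200 family of DNA-binding proteins and is known to restrain the DNA sensor AIM2. Its probe set 1421551_s_at had 10.23, 10.06 and 10.42 on Smn knockdown, 5.69, 5.80 and 5.60 on empty vector and 7.19, 7.96 and 7.35 on wild-type somatodendritic arrays. The log2 difference was 4.54 from empty vector, at least 15.3-fold, and 2.74 from wild-type, 6.67-fold. Apart from Irf1, it was the only one of the 10 genes above background on every wild-type array, and none but Irf1 was on every empty vector array. It carries the _s_ mark, and the family has close copies, so signal from relatives cannot be told apart from its own.

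**Figure D2:**
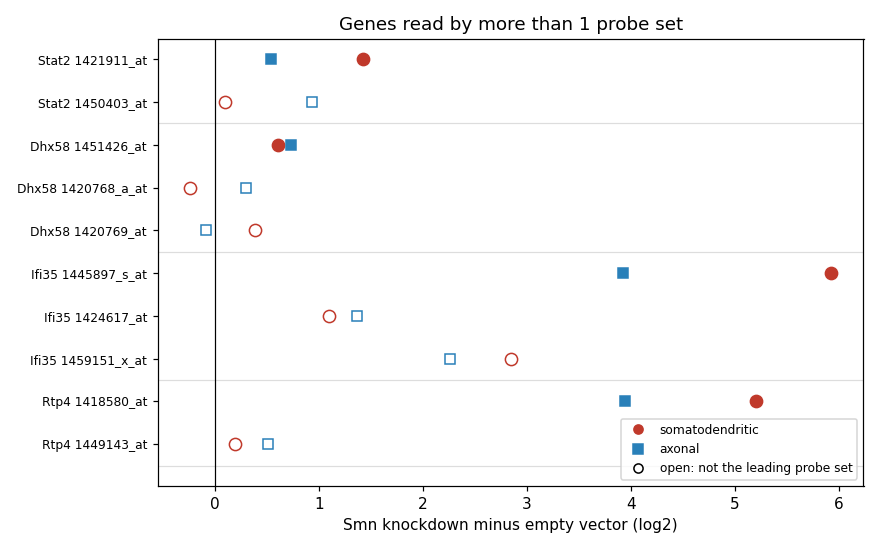
Smn knockdown minus empty vector (horizontal axis, log2, means of 3 arrays each) for every probe set of the 4 genes read by more than 1 probe set; circles are somatodendritic, squares axonal, and open symbols are probe sets other than the leading one. In the somatodendritic arrays the probe sets of Ifi35 spread from 1.10 to 5.93, and those of Rtp4 gave 5.21 and 0.20.

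The empty vector arrays were lower than the wild-type arrays for most of these genes in the somatodendritic compartment. Without overlap this held for 7 of 10: Irf1, Irf9, Ifih1, Usp18, Ifi35, Rtp4 and Ifi202b. It held for 10.8% of all genes. The median log2 difference, empty vector minus wild-type, was -0.41 for the 10 genes, against -0.02 for all genes. Irf1, above background on all of these arrays, differed by -0.26. Ifi202b, above background on the wild-type arrays alone, differed by -1.80. Its empty vector values lay below background, as did most values behind the median of the 10 genes, so neither size is interpreted. The other 5 genes were below background on all empty vector arrays and on at least 1 wild-type array, so the sizes of their differences are not interpreted. This comparison shares its arrays with those against Smn knockdown. The microglial marker mean was lower with empty vector too, at 5.92 to 6.26, against 7.74 to 7.84 in wild-type arrays, and its part in the difference was not tested. Smn knockdown arrays stood at 8.07 to 8.43 on that mean. Most of the 16 markers had a higher mean in Smn knockdown than in wild-type cell bodies, such as Cd68 (means of 8.46 and 6.98). Only Csf1r (10.05 and 10.49), Trem2 (6.35 and 6.85) and P2ry12 (3.57 and 3.75, below background) were lower. Usp18 stood at 11.11 to 11.46 with Smn knockdown and 5.27 to 5.57 in wild-type cultures. The part of the markers in that difference was not tested either.

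The choice of genes rested on somatodendritic differences. That interferon genes as a list lay higher in axons with Smn knockdown was known too, so the axonal results are no independent support for that shift. Axonal differences were tested with limma on all 9 axonal arrays, with Benjamini-Hochberg adjustment over 18191 genes and a threshold of 0.05. Irf7, Irf9, Usp18, Ifi35 and Rtp4 were higher on every Smn knockdown array than on every empty vector array, 5 of 10 genes against 13.3% of all genes. Without Irf9, 4 of them were higher than all 6 control arrays, a pattern of 9.7% of all genes. In the limma test none of the 10 passed for Smn knockdown against empty vector (0.176% of all genes passed), against wild-type (0.099%), or for empty vector against wild-type (0.0%). At an unadjusted p under 0.05 the counts were 5, 5 and 0, beside 18.2%, 20.9% and 3.31% of all genes, and the 5 were those same genes in both knockdown comparisons. Against the mean of both control groups, Irf7, Usp18 and Rtp4 passed as higher, beside 2.37% of all genes called higher and 1.72% called lower. The comparisons share the Smn knockdown arrays.

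Irf7 had axonal values of 9.63, 8.09 and 8.19 on Smn knockdown, 5.97, 6.68 and 6.21 on empty vector and 6.94, 6.48 and 6.36 on wild-type arrays. All knockdown arrays were above background, as was 1 of the 6 control arrays, wild-type replicate 1. The limma difference was 2.35 (SE 0.45, adjusted p 0.0711) from empty vector, at least 3.31-fold, and 2.20 (SE 0.39, adjusted p 0.0325) from both controls. Irf7 was below background on all 9 somatodendritic arrays at this level. With background at the 90th percentile it exceeded it on all 9, and at the 99th it no longer did so on every axonal Smn knockdown array. The compartments appear to have been normalized apart, so the levels are only set side by side.

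Rtp4 had 10.72, 7.77 and 9.56 on Smn knockdown, 5.79, 5.12 and 5.32 on empty vector and 5.72, 5.70 and 5.03 on wild-type axonal arrays. The control arrays were all below background, and the difference was 3.94 (SE 0.66, adjusted p 0.0636 in limma) from empty vector, at least 5.43-fold, and 3.90 (SE 0.57, adjusted p 0.0293) from both controls. Usp18 had 9.04, 8.75 and 6.78 on Smn knockdown, 5.29, 5.41 and 5.60 on empty vector and 4.88, 4.63 and 4.76 on wild-type axonal arrays. Knockdown replicate 3 did not exceed its background, and all control arrays lay below theirs, so no fold is given. The difference was 2.76 (SE 0.54, adjusted p 0.0740 in limma) from empty vector and 3.10 (SE 0.47, adjusted p 0.0293) from both controls.

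Ifi35 had 12.73, 9.38 and 9.63 on Smn knockdown, 4.26, 7.15 and 8.54 on empty vector and 7.52, 3.95 and 4.41 on wild-type axonal arrays with its leading probe set. The groups did not overlap, but the control arrays spread over more than 4 log2 units, and the difference of 3.93 (SE 1.40) from empty vector had an adjusted p of 0.195 in limma. The other probe sets gave smaller axonal differences, 2.26 with 1459151_x_at and 1.36 with the unmarked 1424617_at (adjusted p 0.299 in limma where marked probe sets are left out), again with no overlap. On the axonal Smn knockdown arrays 1459151_x_at exceeded background on 2 of 3 and 1424617_at on 1 of 3. Neither exceeded it on any axonal control array. Irf9 had 10.06, 6.88 and 8.92 on Smn knockdown, 6.24, 5.62 and 6.51 on empty vector and 7.03, 7.44 and 6.20 on wild-type axonal arrays. Knockdown replicate 2 was below wild-type replicates 1 and 2, and the limma difference from empty vector was 2.50 (SE 0.74, adjusted p 0.140).

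The leading probe sets of the other 5 genes overlapped between axonal Smn knockdown and empty vector arrays. Ifih1, high in the knockdown cell bodies, had 5.39, 6.10 and 5.74 on Smn knockdown, 6.02, 6.48 and 5.22 on empty vector and 7.26, 5.51 and 5.73 on wild-type axonal arrays, all but wild-type replicate 1 below background. Its difference from empty vector was -0.16 with a 95% interval of -1.36 to 1.04 (adjusted p 0.905 in limma). Both groups lay below background, so this difference does not limit a change of the transcript. Ifi202b had 8.90, 7.53 and 7.25 on Smn knockdown, 6.79, 6.31 and 8.11 on empty vector and 9.67, 6.00 and 5.83 on wild-type axonal arrays, where its highest value was a wild-type array. The difference from empty vector was 0.82 (95% interval -1.52 to 3.17, adjusted p 0.721 in limma).

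Stat2 had 5.72, 7.56 and 5.49 on Smn knockdown, 5.93, 4.77 and 6.44 on empty vector and 5.17, 5.74 and 6.40 on wild-type axonal arrays, where knockdown replicate 2 alone exceeded background. Its second probe set, 1450403_at, was below background on all arrays but did not overlap, at 6.37, 6.13 and 6.18 on Smn knockdown, 5.22, 5.43 and 5.23 on empty vector and 5.46, 5.42 and 4.69 on wild-type axonal arrays. Irf1 had 9.44, 7.82 and 9.62 on Smn knockdown, 7.74, 8.38 and 7.91 on empty vector and 8.70, 7.80 and 7.87 on wild-type axonal arrays, above background on each. The limma differences from empty vector were 0.54 (adjusted p 0.708) for the leading probe set of Stat2 and 0.95 (adjusted p 0.367) for Irf1. Dhx58 stayed below background, at 4.45 to 6.07 on Smn knockdown, 4.08 to 4.71 on empty vector and 4.16 to 4.67 on wild-type axonal arrays. Of the axonal empty vector and wild-type arrays, Usp18 alone did not overlap, with empty vector higher, a pattern of 4.29% of all genes, and both groups were below background there.

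**Figure D3:**
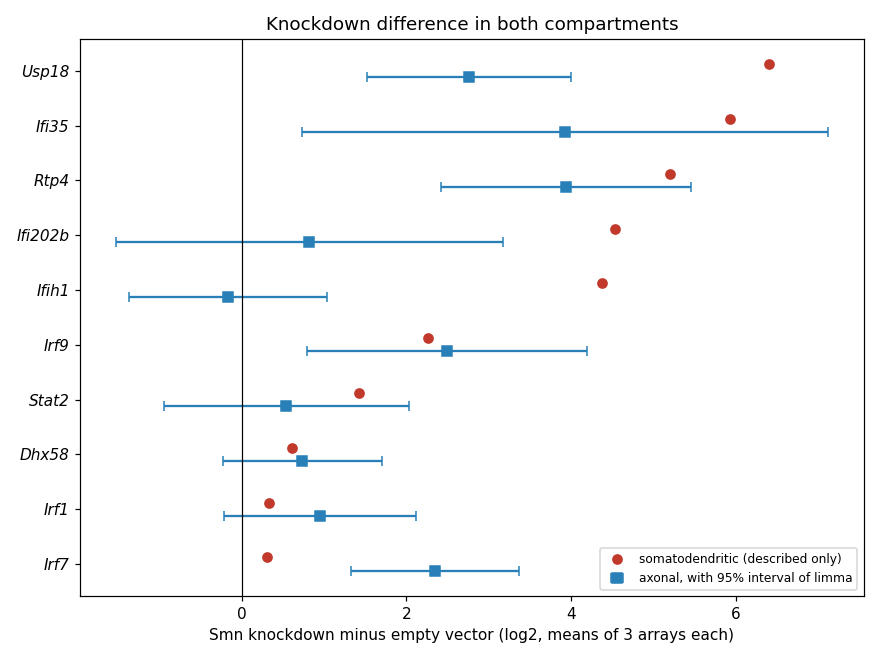
Smn knockdown minus empty vector (horizontal axis, log2, means of 3 arrays each) for the leading probe set of each gene; circles are somatodendritic values, described only, and squares are axonal values with the 95% interval of limma. Ifih1 lies at 4.38 in the somatodendritic and, below background in both groups, at -0.16 in the axonal compartment. Irf7 lies, below background in both groups, at 0.31 in the somatodendritic and at 2.35 in the axonal compartment.

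The axonal calls for Irf7, Usp18 and Rtp4 depended on single arrays. None of the 3 passed without Smn knockdown replicate 1, empty vector replicate 1 or 3, or wild-type replicate 2 or 3, and only 1 gene passed without Smn knockdown replicate 3. Without Smn knockdown replicate 1 and wild-type replicate 1, the axonal arrays with the most microglial marker signal, the differences from both controls were 1.79 for Irf7 (adjusted p 0.0899 in limma), 2.70 for Usp18 (adjusted p 0.114) and 3.28 for Rtp4 (adjusted p 0.0884). This choice of arrays was made after the data were seen. With all 18 arrays in 1 fit, the 5 genes Irf7, Irf9, Usp18, Ifi35 and Rtp4 passed against empty vector, but so did 20.7% of all genes.

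Axonal wild-type replicate 1 had the highest microglial marker mean of all 18 arrays, 9.92. On that array Usp18 was at 4.88 and Rtp4 at 5.72, below background. Irf1 (8.70), Irf7 (6.94), Irf9 (7.03), Ifih1 (7.26), Ifi35 (7.52) and Ifi202b (9.67) were above it. All of these but Irf9 were at their highest of the wild-type axonal arrays there. Axonal Smn knockdown replicate 1, at 9.05, had the highest axonal values of Irf7, Irf9, Usp18, Ifi35 and Rtp4. Smn knockdown replicates 2 and 3 were at 6.91 and 6.64 on that mean. The part of the microglial markers in the axonal values was not tested beyond leaving those arrays out.

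**Figure D4:**
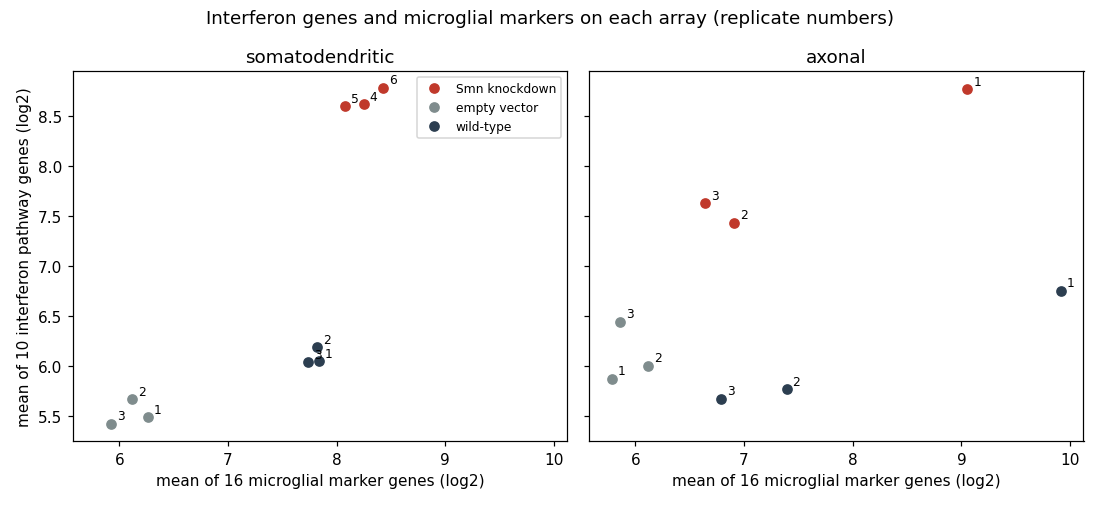
Mean log2 value of the 10 interferon pathway genes (vertical axis) against that of 16 microglial marker genes (horizontal axis) on each array, with replicate numbers, somatodendritic at left and axonal at right. Somatodendritic Smn knockdown and wild-type arrays lie at 8.07 to 8.43 and 7.74 to 7.84 on the marker axis and at 8.60 to 8.78 and 6.04 to 6.19 on the interferon axis. Somatodendritic empty vector arrays lie at 5.92 to 6.26 on the marker and 5.42 to 5.67 on the interferon axis. Axonal Smn knockdown replicate 1 lies at 9.05 and 8.77, and axonal wild-type replicate 1 at 9.92 and 6.76. The part of the markers was not tested.

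Across the 6 groups, the highest mean was somatodendritic Smn knockdown for Stat2, Ifih1, Usp18, Ifi35, Rtp4 and Ifi202b, and axonal Smn knockdown for Irf1, Irf7 and Irf9. For Ifi35 and Irf9 the somatodendritic and axonal Smn knockdown arrays overlapped, so which of these groups leads is not settled. In that order, the means were 10.65 ± 0.17 and 10.58 ± 1.87 for Ifi35, and 8.25 ± 0.08 and 8.62 ± 1.61 for Irf9 (SD, n = 3 each). Dhx58 lay below background on all 18 arrays and has no order. Usp18 was highest in somatodendritic Smn knockdown (11.30 ± 0.18) and then in axonal Smn knockdown arrays (8.19 ± 1.23; SD, n = 3 each), while its 4 control groups, at 4.76 to 5.43 on average, lay below background on every array and have no order. Rtp4 was likewise led by somatodendritic (10.99 ± 0.05) and axonal Smn knockdown (9.35 ± 1.49), which did not overlap each other or any control. Among the controls it exceeded background on 1 somatodendritic wild-type array alone. For Stat2 every pair of neighbouring groups overlapped, and for Irf1 every pair but the lowest, somatodendritic wild-type (7.86 ± 0.16) and empty vector (7.60 ± 0.07). The order across compartments rests on values that appear to have been normalized apart.

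Pairs of the 10 genes were compared over the arrays of each compartment. The genes were listed for their shared somatodendritic differences, which favours high values there. Over the 45 pairs of genes, Pearson's r across 9 arrays had a median of 0.935 (0.533 to 0.997) in the somatodendritic and of 0.479 (-0.479 to 0.944) in the axonal compartment. Usp18 and Rtp4 were the closest somatodendritic pair, Irf7 and Rtp4 the closest axonal pair (0.944), and Stat2 and Irf1 the least alike in both. The arrays of a compartment share their group structure, so these values are a description. Over all 18 arrays with each compartment's mean subtracted, the genes outside the list most like the mean of the 10 were Igtp (r 0.969), Rsad2 (0.961), Gbp3 (0.957), Psmb8 (0.957) and Eif2ak2 (0.952). Igtp and Gbp3 encode interferon-induced GTPases, Rsad2 the antiviral enzyme viperin, Psmb8 an immunoproteasome subunit and Eif2ak2 the RNA-activated kinase PKR. Stat2 was the gene least like the other 9 (r 0.523), and the genes most like it were Klf16 (0.909), Slc25a44 (0.907) and Chmp1a (0.899).

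Of 64 further genes of the pathway, 55 were measured, and the rest are not analysed here. In the somatodendritic arrays, 22 of the 55 were higher and 6 lower with Smn knockdown than with empty vector, while over all genes 2267 were called higher and 2821 lower, 28.0% in both directions together. Their median log2 difference was 0.13, against -0.02 over all genes. Against wild-type, 13 were higher and 8 lower, beside 15.6% and 20.4% of all genes. Empty vector against wild-type gave 0 higher and 3 lower, beside 0.484% and 1.52%. These are limma calls on 9 arrays, and up to 3 called genes of lowest p are named in each group of the list.

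Of 11 ligand and receptor genes, 3 were higher and 1 lower than with empty vector. Ifna2 rose by 0.91 (SE 0.09, adjusted p 1.9e-05 in limma) but lay below background in every group, at 5.80 to 5.90 on Smn knockdown, 4.81 to 5.04 on empty vector and 4.90 to 5.13 on wild-type arrays. The interferon genes Ifnb1, Ifna4 and Ifng, named for their role, were also below background on all somatodendritic arrays, where Ifna4 was called higher by 0.44 (adjusted p 0.0136 in limma). Ifna1 exceeded it on 2 empty vector and 3 wild-type arrays and on no Smn knockdown array, with a difference of -0.30 from empty vector that did not pass (adjusted p 0.0973 in limma). Ifnar2, a chain of the type I receptor, was higher by 0.54 (adjusted p 0.00295 in limma), and Ifngr2, a chain of the interferon gamma receptor, was lower, with a difference of -0.43 (adjusted p 0.00414).

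Of 8 JAK and STAT genes, 3 were higher and 2 lower. Stat3, a transducer of CNTF and interleukin 6 signals, averaged 9.49 ± 0.20 on Smn knockdown, 8.60 ± 0.11 on empty vector and 8.41 ± 0.08 on wild-type arrays (SD, n = 3 each), and rose by 0.88 against empty vector (adjusted p 8.28e-05 in limma). The kinase genes Jak1 and Jak2 were lower, with differences of -0.70 (adjusted p 0.000929) and -0.39 (adjusted p 0.00629). Among 5 other IRF genes, Irf2 and Irf5 were higher by 0.55 and 0.33 and none was lower. Irf2 lay below background in every group.

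The 18 other sensors, adaptors and kinases held 9 higher genes and 1 lower gene. Ddx58, which encodes the RNA sensor RIG-I, averaged 9.71 ± 0.27 on Smn knockdown, 6.99 ± 0.19 on empty vector and 7.33 ± 0.13 on wild-type arrays (SD, n = 3 each), and rose 6.60-fold against empty vector (adjusted p 4.8e-08 in limma). Eif2ak2 rose by 1.89 (adjusted p 2.07e-08), at least 1.19-fold, with Smn knockdown arrays at 6.49 to 6.61, empty vector at 4.63 to 4.73 and wild-type at 4.53 to 4.76. Ifi204, a relative of Ifi202b, rose by 3.58 (adjusted p 8.79e-08) but exceeded background on 2 of 3 Smn knockdown arrays and on no control array. The RNA receptor gene Tlr3 and the RIG-I ubiquitin ligase gene Trim25, named after their values were seen, rose by 2.22 and 2.99 (adjusted p 1.26e-07 and 7.06e-06 in limma).

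Of 13 other genes of the ISG15 system and of feedback, 5 were higher and 2 lower. Trim21, which encodes a cytosolic antibody receptor and ubiquitin ligase, averaged 10.28 ± 0.15 on Smn knockdown, 6.91 ± 0.11 on empty vector and 7.33 ± 0.37 on wild-type arrays (SD, n = 3 each), and rose 10.3-fold against empty vector (adjusted p 2.1e-08 in limma). The phosphatase genes Ptpn2 and Ptpn11, whose products act on JAK and STAT proteins, were lower, with differences of -0.60 and -0.57 (adjusted p 0.000168 and 0.000309). Tnfaip3, an inhibitor of NF-kappaB signalling, was higher with Smn knockdown than with empty vector by 0.72, and lower than in wild-type, with a difference of -0.81. With empty vector it was also lower than in wild-type, with a difference of -1.53 (adjusted p 0.00365, 0.00121 and 9.7e-05 in limma). Ptpn6 was also lower with empty vector than in wild-type, with a difference of -0.45 (adjusted p 0.0268). Tlr7 was called lower too (-0.67, adjusted p 0.0160) but lay below background in every somatodendritic group.

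Against wild-type the leading calls among these genes were the same in direction: Eif2ak2 rose by 1.92, Ddx58 by 2.38, Ifi204 by 3.10, Trim21 by 2.95 and Stat3 by 1.08 (adjusted p 2.87e-08, 2.27e-07, 4.37e-07, 1.08e-07 and 1.36e-05 in limma). The lower genes included Jak1, with a difference of -0.85, and Ptpn2, with -0.72 (adjusted p 0.000161 and 3.07e-05). The comparison shares the Smn knockdown arrays with the one against empty vector. In 1 fit over all 18 arrays, 6 of the 55 genes were called against empty vector, all higher, and 4 against wild-type, beside 0.566% and 0.792% of all genes. Of the list, 29 genes were above background in a group. With only such genes tested, 18 of the 29 were called against empty vector, beside 43.4% of all genes tested there.

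**Figure D5:**
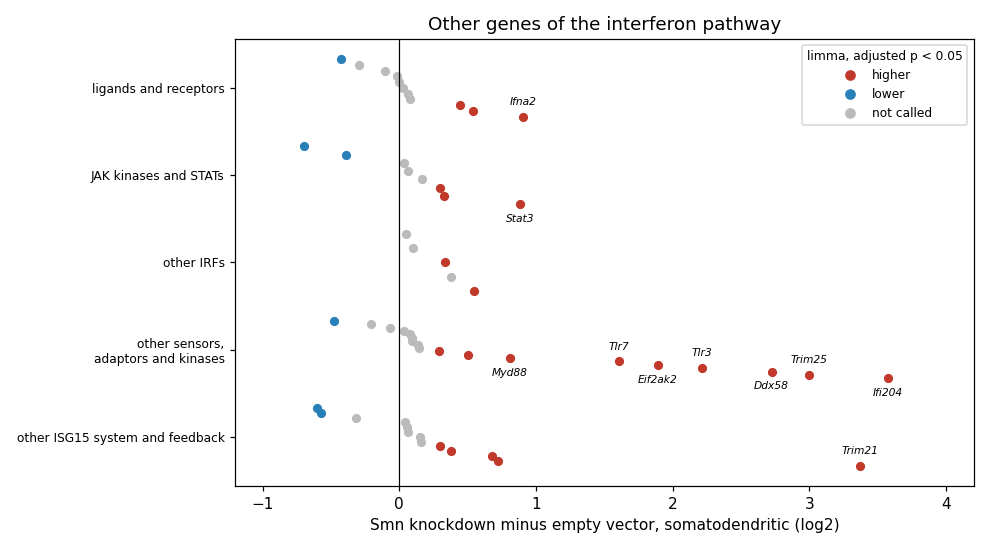
Smn knockdown minus empty vector in the somatodendritic compartment (horizontal axis, log2) for 55 further genes of the interferon pathway, grouped by role (vertical axis); red points were called higher and blue points lower by limma, and names are given where the difference exceeds 0.8. Trim21, above background in all groups, lies at 3.37, whereas Ifi204, at 3.58, was below background on all control arrays.

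In the axonal arrays none of these 55 genes passed for Smn knockdown against empty vector, against wild-type, or for empty vector against wild-type, with 10, 17 and 0 at an unadjusted p under 0.05 in limma. The first 2 counts stand beside the 18.2% and 20.9% of all genes at that p, and 10 of 55 is close to that background. Against both controls, 1 of the 55 was called higher and 2 lower, beside 2.37% and 1.72% of all genes, so these are few calls near the general rate. Stat3 was higher by 1.82 (SE 0.31, adjusted p 0.0306 in limma). It stood at 9.71 to 10.50 on Smn knockdown, 8.24 to 9.21 on empty vector and 7.84 to 8.34 on wild-type arrays. Ifnar1, a chain of the type I interferon receptor, was lower, with a difference of -1.51 (adjusted p 0.0343), and was below background on all Smn knockdown arrays and above it on all control arrays. Tbk1, the kinase that activates IRF3, had 4.84 to 6.68 on Smn knockdown, 8.71 to 11.22 on empty vector and 10.09 to 10.55 on wild-type axonal arrays, a difference of -4.39 (SE 0.57, adjusted p 0.0279). None of the 3 passed without Smn knockdown replicate 1 and wild-type replicate 1. In the somatodendritic arrays Tbk1 stood at 11.06 to 11.15 with Smn knockdown, 11.09 to 11.25 with empty vector and 11.19 to 11.36 in wild-type cultures.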

How the data were processed

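The deposited table held log2 expression values of 45101 probe sets on 18 arrays, between 2.541 and 15.03. The labels give total RNA, linear amplification in 2 rounds and biotin labelling, and the values were normalized with software not given in the sources used here. Titles of the Smn knockdown arrays follow another numbering scheme than those of both controls, so any separate handling cannot be told apart from the knockdown. Sorted values were nearly identical among arrays of a compartment and differed between the 2 compartments. The compartments thus appear to have been normalized apart, which the sources used here do not state, and no test was run across them. Probe sets were named with the platform annotation: 34958 named 1 gene, 932 several and 9211 none. The 64 control probe sets and 11 with a missing value were left out, and no filter on dim values was set. Each of 18191 genes was represented by its probe set of highest mean over the 18 arrays.

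Groups were compared with limma 3.58.1 (R 4.3.3, lmFit and eBayes, 1 mean per group, 9 arrays of the compartment), with Benjamini-Hochberg adjustment and a threshold of 0.05. The number of arrays, 3 per group, limits the precision. The members, the list of pathway genes, the marker lists and the tests were chosen with earlier results of these data known. Named were the members, in each group of the pathway list up to 3 called genes of lowest p, Smn1, the 5 genes most like the members' mean and the 3 most like the least typical member. Folds are lower bounds where 1 group was not above background on every array, and are left out where both were not. Alternatives covered the probe set choice, a dim filter, normalization, fit, weights, prior, left-out arrays, the replicate number and the background percentile.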

Additional observations from a re-analysis of the deposited data

Results flagged for a closer look

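One further probe set, 1457666_s_at, is annotated to Ifi202b together with a second locus and was therefore not used for the gene. It was noted because its signal, a mean log2 value of 11.58 in the somatodendritic Smn knockdown arrays, exceeded that in the controls. Its values were 11.72, 11.27 and 11.76 on Smn knockdown, 5.83, 5.99 and 5.09 on empty vector and 8.54, 9.22 and 8.34 on wild-type somatodendritic arrays, the same order of groups as for 1421551_s_at. On axonal arrays it had 10.64, 5.28 and 5.37 with Smn knockdown, 5.34, 5.50 and 10.21 with empty vector and 12.48, 5.14 and 5.14 in wild-type cultures, so 1 array of each group was high and the groups overlapped. Groups of 3 arrays are too small for a test of single outlying arrays.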

How the results depend on the processing

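The number of arrays and the signal over background limit these results, most of all in axons. Other settings changed mainly the counts of calls, and the causes were not tested. Joint quantile normalization of all 18 arrays also made the somatodendritic difference from empty vector smaller for every member. Usp18 went from 6.41 to 5.87, Ifi35 from 5.93 to 5.31 and Rtp4 from 5.21 to 4.71. Ifi202b went from 4.54 to 3.99, Ifih1 from 4.38 to 3.82 and Irf9 from 2.27 to 1.91. Members called in axons against empty vector numbered 0, but 1 with a filter on dim probe sets and 5 in 1 fit over all 18 arrays; against wild-type 0, but 1, 5 and, with array weights, 3; against both controls 3, but 6 in the fit of 18 arrays. Other pathway genes called in axons against empty vector numbered 0, but 1 with the filter and 13 in the fit of 18 arrays. That fit called 20.7% of all genes against empty vector, so the 13 of 55 are no particular trait of the list. Its shares of all genes in the other axonal comparisons are not given here. Against wild-type the other pathway genes called numbered 0, but 2 with the filter, 20 in the fit of 18 arrays and 5 with weights. Against both controls they numbered 3, but 7 after joint quantile normalization, 19 in the fit of 18 arrays, 6 with weights and 1 with a trend. Without Smn knockdown replicate 1 and wild-type replicate 1, chosen after the data were seen, 0 members and 0 other genes passed there. In cell bodies the pathway calls were 28 against empty vector, but 18 of the 29 genes left by the filter and 6 in the fit of 18 arrays. Against wild-type they numbered 21, but 4 in that fit. For empty vector against wild-type they numbered 3, but 0 in that fit and 5 with weights. Leaving out 1 array at a time gave 0 to 2, 0 to 2, 0 and 0 to 4 members called in the 4 axonal comparisons, 0 to 2, 0 to 3, 0 and 0 to 7 other genes, and 23 to 30, 20 to 22 and 1 to 7 in cell bodies. The empty vector and wild-type count was 1 without empty vector replicate 1 or wild-type replicate 1 or 2, and 7 without wild-type replicate 3. Deviations of same-numbered arrays correlated at -0.19 to 0.23, with 1 of 12 above 0.1. With 3 arrays per group, and another numbering scheme for the Smn knockdown arrays, this cannot show whether the replicate numbers mark pairs. With the replicate block, 0 members and 1 other gene passed against both axonal controls, and 1 gene in empty vector against wild-type cell bodies. Smn knockdown minus empty vector in axons changed sign for Stat2 without Smn knockdown replicate 2 (-0.11, in a range of -0.11 to 0.93 over single arrays left out). It changed sign for Ifih1 without Smn knockdown replicate 1, with or without wild-type replicate 1 (0.014), and without empty vector replicate 2 (0.12, in a range of -0.51 to 0.12). With background at the 90th percentile, members above it on every array numbered 3 in empty vector and 7 in wild-type cell bodies and 3 in wild-type axons, in place of 1, 2 and 1; at the 99th percentile 1 in Smn knockdown axons, in place of 5.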
